A study of Mus musculus with 31 samples.

Results

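Cytochrome P450 enzymes were followed through the kidneys of a mouse model of polycystic kidney disease. Gene rows with a symbol of Cyp and a digit were taken, rows named as pseudogenes were left out, and a gene was kept when it had at least 10 counts in at least 5 mice. Of 102 such rows among 23509 genes, 5 were pseudogenes, 41 fell below the count rule and 56 were kept. Just inside that rule was Cyp8b1, which reached 10 counts in 6 mice, and just outside it was Cyp1a2, which did so in 4 mice. Kidney mRNA had been sequenced from 31 mice in 3 groups. The Pcy mice, which carry a recessive cystic kidney mutation on the CD1 background, received PBS in 12 animals and RGLS4326 in 14, by injection under the skin from 5 weeks of age over 25 weeks. RGLS4326 is a short chemically modified oligonucleotide that blocks the microRNA miR-17, and its dose was 25 mg kg−1 once a month. The sample label of the PBS group and the study's description of its PBS-treated male Pcy mice give weekly injections, and the deposited protocol reads monthly. If PBS was weekly, RGLS4326 and injection frequency cannot be told apart. The 5 wild-type CD1 mice were male, not injected and matched to the Pcy mice in age, which the dosing span puts at 30 weeks at harvest. The comparison of PBS-treated mice with wild type therefore holds the mutation and the injections together. The study names different suppliers for Pcy mice on CD1 and for CD1 mice, so any difference between colonies cannot be told apart from these either. Xist was at 0 to 0.300 CPM in all 31 mice and the Y-linked Ddx3y at 18.5 CPM or more, as in male tissue, which bears on members with higher levels in male kidney. Ddx3y was at 47.01 to 50.6 CPM in wild type and 18.5 to 42.1 CPM with PBS, and Uty, also Y-linked, at 25.95 to 32.9 and 2.63 to 8.28 CPM. Kdm5d and Eif2s3y were likewise lower without overlap, and the part of these differences in any result was not tested. Whole kidneys were used, and fewer cells of a type and less RNA per cell cannot be told apart in such samples.

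P450 enzymes are heme proteins that insert an atom of oxygen into fats, sterols, vitamins, hormones and foreign compounds. Those in the endoplasmic reticulum take electrons from Por, and those in mitochondria take them from ferredoxin. The proximal tubule is rich in them: members of families 4a and 4b hydroxylate fatty acids, members of family 2j make epoxides of arachidonic acid, and Cyp27b1 and Cyp24a1 make and break down active vitamin D.

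Many members lie in clusters of tandem copies, and copies of a cluster could take different courses. Coordinates are those of GRCm38 from GENCODE vM21, in which 54 of the 56 members were found. Chromosome 4 holds 13 of them, with the 2j genes from 96027534 (Cyp2j13) to 96664154 (Cyp2j5) and the 4a genes and Cyp4b1 from 115299046 (Cyp4a12a) to 115647723 (Cyp4b1). Cyp2a4 and Cyp2a5 are on chromosome 7 and Cyp2d9 and Cyp2d10 on chromosome 15. The 250 bases before the start of Cyp2a4 and of Cyp2a5 are shown because they are nearly the same sequence before genes whose levels took different courses, and those of Cyp2d9 and Cyp2d10 because the first was abundant and the second scarce. They are RefSeq windows of GRCm38.p6, read 5′ to 3′ on the strand of the gene, and capitals mark bases that differ from the partner or face a gap in a global alignment. The starts are those of RefSeq and differ from GENCODE, which starts Cyp2a4 at 26307169 and Cyp2a5 at 26835305, within the stretches shown. The Cyp2d9 stretch lies wholly within its GENCODE gene (82433437 to 82456845). Cyp2a4 (chr7:26306942-26307191, plus strand) and Cyp2a5 (chr7:26835089-26835338, plus strand) are 97.6% identical over this stretch, with 4 mismatches and 2 gap bases:
Cyp2a4: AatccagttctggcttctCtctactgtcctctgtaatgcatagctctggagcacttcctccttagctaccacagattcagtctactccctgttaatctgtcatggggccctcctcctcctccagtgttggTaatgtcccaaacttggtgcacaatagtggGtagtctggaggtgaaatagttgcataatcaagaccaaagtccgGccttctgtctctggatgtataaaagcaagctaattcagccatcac
Cyp2a5: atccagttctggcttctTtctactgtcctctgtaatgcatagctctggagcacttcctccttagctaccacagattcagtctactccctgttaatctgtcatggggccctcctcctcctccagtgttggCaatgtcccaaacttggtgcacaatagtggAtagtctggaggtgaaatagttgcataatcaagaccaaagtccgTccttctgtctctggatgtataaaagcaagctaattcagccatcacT
Cyp2d9 (chr15:82452127-82452376, plus strand) and Cyp2d10 (chr15:82407195-82407444, minus strand) are 82.8% identical, with 32 mismatches and 12 gap bases:
Cyp2d9: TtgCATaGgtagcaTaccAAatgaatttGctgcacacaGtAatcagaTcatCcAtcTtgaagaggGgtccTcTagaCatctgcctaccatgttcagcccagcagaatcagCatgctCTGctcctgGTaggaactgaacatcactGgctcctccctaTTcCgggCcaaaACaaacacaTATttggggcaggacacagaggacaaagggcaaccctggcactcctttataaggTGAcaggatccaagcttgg
Cyp2d10: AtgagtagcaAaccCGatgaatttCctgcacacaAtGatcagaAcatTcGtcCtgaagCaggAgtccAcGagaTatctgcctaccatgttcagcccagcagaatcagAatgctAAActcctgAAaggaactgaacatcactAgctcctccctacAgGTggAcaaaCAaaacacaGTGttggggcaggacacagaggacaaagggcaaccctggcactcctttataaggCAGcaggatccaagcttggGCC
RefSeq promoter windows of 300 bases were found for 40 members. The letters TATAAA, on either strand, occurred in 15 of the 40 (37.5%) and in 4234 of 27025 genes of all kinds with a window (15.7%), which is a description of the letters and not of binding.

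Copies this alike share reads. In the longest protein-coding transcript of each gene, the share of 75-base windows found in no other P450 transcript was 58.7% for Cyp4a12b, 59.2% for Cyp4a12a, 69.6% for Cyp4a32, 73.4% for Cyp2d10, 74.5% for Cyp2a5 and 77.9% for Cyp2a4. It was under 90% for 12 of 54 members and 100% for 31. The authors counted uniquely mapped reads, so the levels of these close copies are less certain than those of the others.

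Gene totals ran from 14892524 to 27459962 counts per mouse. Levels are given as CPM, the usual rescaling of a gene's count by the size of its library, here after correction of library sizes with TMM factors. Several libraries stood apart. RGLS4326 replicate 9 was nearer to the wild-type mean than to the PBS mean in 42 of 55 members tested and in 77.8% of all 15185 genes, where the other RGLS4326-treated mice were so in 10 to 28 members and 12.51% to 50.3% of genes. Its summed proximal tubule markers (20 genes, Lrp2 and Slc34a1 among them) came to 46672 CPM, where wild type had 47724 to 53726, PBS 14602 to 28260 and the other RGLS4326-treated mice 19903 to 34519 CPM. Whether this mouse carried the Pcy mutation was not tested, so its label was kept. The main counts of RGLS4326 against PBS are given with and without it. For single genes the value without it is given only where stated. Wild-type replicates 3 and 4 were far more alike than any other wild-type pair, with a chi-square of 2.44 per gene against 14.1 or more, which is above sampling noise. Whether they are libraries of separate mice was not tested. They were counted as the labels give them, and with both as 1 sample 34 P450 genes passed between PBS and wild type in place of 36. Sample numbers in the library names start again at intervals and so mark 3 index series, of 4, 4 and 4 mice with PBS, 4, 5 and 5 with RGLS4326 and 2, 2 and 1 of wild type. RGLS4326 replicate 9 and wild-type replicates 3 and 4 belong to series 2.

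Summed P450 mRNA was lower in diseased kidneys, while single members differed in both directions. Between PBS-treated and wild-type mice, 36 of the 55 members tested passed an adjusted p of 0.05 over all 15185 genes (edgeR, quasi-likelihood F test, Benjamini-Hochberg), 15 higher and 21 lower in PBS-treated mice. Over all genes 37.7% rose and 36.6% fell, so that the share of P450 genes that changed was near that of genes in general. The median log2 fold change was −0.18 over the members and 0.01 over all genes. With a fold threshold added, an absolute log2 fold change over 0.5, 30 members passed, beside 42.4% of all genes. In 16 members the PBS-treated and wild-type mice did not overlap, which held for 42.2% of all genes. Summed over the 56 members, P450 mRNA came to 14928 to 17743 CPM in wild type (median 15032), 5490 to 10762 CPM with PBS (median 8027) and 7794 to 13792 CPM with RGLS4326 (median 9827). The PBS-treated and wild-type ranges of this sum did not overlap, and the upper end of the RGLS4326 range was replicate 9.

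With RGLS4326, 13 members differed from PBS at the same threshold, 11 higher and 2 lower. Over all genes 9.15% rose and 6.66% fell. The median log2 fold change was 0.15 over the members and 0.00 over all genes, and 38 of 55 members were on the positive side. Without replicate 9, 5 members passed, with Cyp2j13, Cyp4a12a, Cyp2a4 and Cyp7b1 higher and Cyp39a1 lower, beside 4.65% of all genes that rose and 3.44% that fell. Adding the fold threshold left 7 of the 13, beside 2.15% of all genes, and 1 (Cyp4a12a) without replicate 9, beside 0.948%. In each index series alone edgeR called 0 members, while 2, 11 and 17 had an unadjusted p under 0.05 in series 1, 2 and 3, beside 1.82%, 19.8% and 19.9% of all genes. DESeq2 over all mice called 15. The count also rested on single mice of both Pcy groups, and leaving out 1 mouse moved it between 3 (without PBS replicate 10) and 17. Against wild type, RGLS4326-treated mice differed in 28 members, 13 higher and 15 lower, where 32.5% of all genes rose and 32.4% fell. These comparisons share mice, so each is given with its own values.

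**Figure D1:**
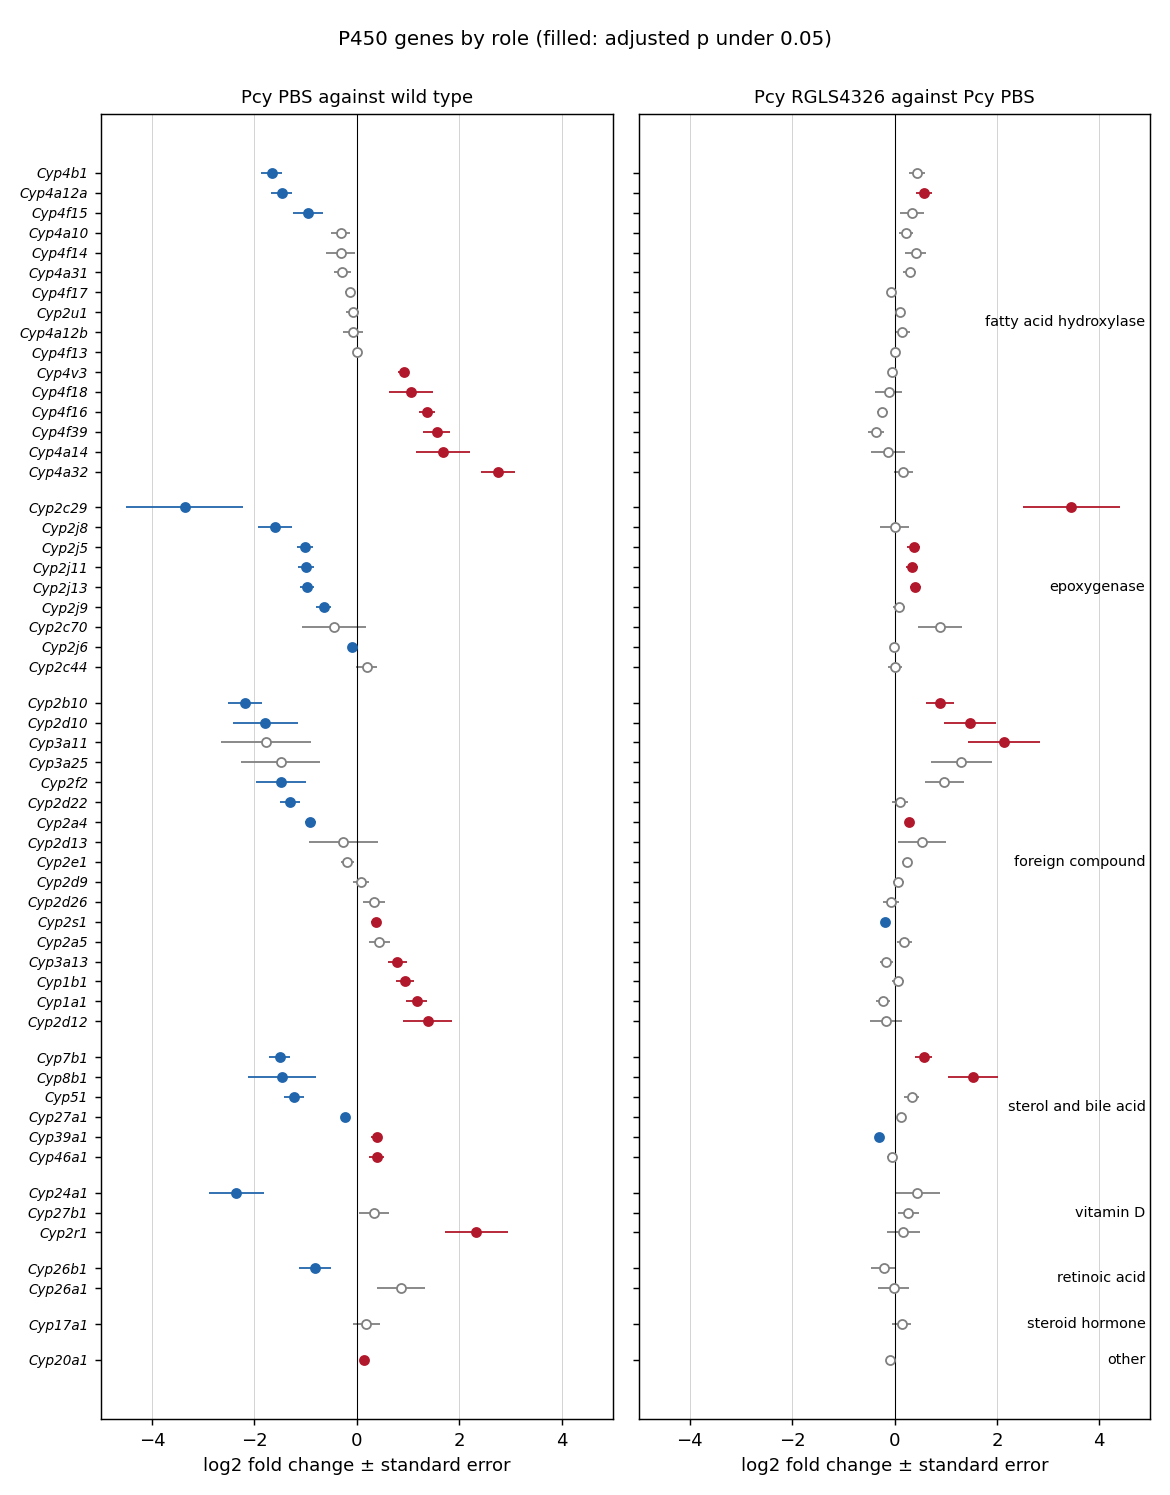
Log2 fold change with its standard error for the 55 P450 genes tested, grouped by role, for PBS-treated Pcy mice against wild type (left) and RGLS4326-treated against PBS-treated Pcy mice (right). Filled points passed an adjusted p of 0.05. On the left 36 points are filled and on the right 13, and the comparisons share the PBS-treated mice.

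Fatty acid hydroxylases made up the largest summed level of any role in wild-type kidney. Of 16 members tested in this role, 6 rose and 3 fell between wild type and PBS, where 37.7% and 36.6% of all genes did. With RGLS4326 1 rose, with or without replicate 9, beside 9.15% or 4.65% of all genes. Their summed level was 7142 to 8817 CPM in wild type, 1640 to 4078 CPM with PBS and 2615 to 6641 CPM with RGLS4326, the highest being replicate 9. Cyp4b1, which hydroxylates fatty acids and activates some foreign compounds, carried most of this sum. It read 7331, 7354, 5689, 5568 and 6181 CPM in wild-type replicates 1 to 5, ran from 1132 to 3039 CPM (median 1951) with PBS, and from 1906 to 3412 CPM (median 2310) with RGLS4326 apart from replicate 9 at 5538 CPM. Every PBS-treated mouse was below every wild-type mouse, and the RGLS4326 range overlapped the PBS range. Per length of exon, Cyp4b1 was the most abundant member in wild type, at 2848 CPM per kb, and with PBS, at 897 CPM per kb, it came after Cyp2e1 at 935. Its log2 fold change was −1.67 (standard error, SE, 0.21; adjusted p = 5.18e-08) with PBS against wild type and 0.44 (SE 0.16, adjusted p = 0.0556) with RGLS4326 against PBS, the latter 0.32 without replicate 9. The treatment difference in Cyp4b1 missed the threshold in edgeR over all mice.

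Within the 4a cluster the copies went separate ways. Cyp4a12a, an arachidonic acid hydroxylase that is abundant in male mouse kidney, read 972, 1122, 968, 970.2 and 823 CPM in wild type, 186 to 665 CPM (median 349) with PBS and 325 to 677 CPM (median 522) with RGLS4326. All wild-type mice were above all Pcy mice in both groups. It fell by 1.47 on the log2 scale with PBS (standard error 0.20, adjusted p = 2.24e-07) and was 0.58 higher with RGLS4326 than with PBS (SE 0.16, adjusted p = 0.0223), or 0.54 higher without replicate 9, which also passed. Of the 31 fits that left out 1 mouse, the treatment call of Cyp4a12a was lost in 1, without PBS replicate 10 (0.52). Cyp4a12b, whose transcript is 97.2% identical to that of Cyp4a12a, was at 9.09 to 17.4 CPM in wild type and 8.87 to 21.5 CPM with PBS. Its log2 fold change was −0.08 (standard error 0.20, adjusted p = 0.738), and the ratio of Cyp4a12a to Cyp4a12b had a median of 67.7 in wild type, 24.5 with PBS and 33.9 with RGLS4326. Cyp4a10, a target of the fatty acid receptor Ppara, and its neighbour Cyp4a31 had means of 140.2 and 254 CPM in wild type and 113 and 209 CPM with PBS, and neither passed the test (adjusted p = 0.115 and 0.126).

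Cyp4a32, which lies between Cyp4a31 and Cyp4b1, had the largest positive log2 fold change of the 55 members tested with PBS. It read 0.826, 0.416, 0.592, 0.605 and 1.63 CPM in wild type, 3.20 to 8.05 CPM (median 5.58) with PBS and 4.72 to 8.61 CPM in 13 RGLS4326-treated mice, with replicate 9 at 0.920 CPM. No PBS-treated mouse was within the wild-type range, and replicate 9 was. The log2 fold change was 2.76 with PBS (standard error 0.34, adjusted p = 4.45e-08) and 0.17 with RGLS4326 against PBS (SE 0.19, adjusted p = 0.527). Cyp4a32 shares 75-base windows with Cyp4a10 and Cyp4a31, and the ratio of Cyp4a10 to Cyp4a32 was 96.5 to 272 in wild type and 13.9 to 24.7 with PBS, without overlap. Cyp4a14, another Ppara target, read 1.65, 1.07, 3.67, 4.54 and 2.53 CPM in wild type and 2.34 to 19.2 CPM (median 8.46) with PBS. Its ranges overlapped, and it rose by 1.69 in log2 units (standard error 0.52, adjusted p = 0.00493). With RGLS4326 Cyp4a14 ran from 2.83 to 27.5 CPM, and its change of −0.12 from PBS did not pass.

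In family 4f, whose members inactivate leukotrienes and hydroxylate long fatty acids, Cyp4f16, Cyp4f39 and Cyp4f18 rose, Cyp4f15 fell and Cyp4f13, Cyp4f14 and Cyp4f17 did not pass. The call of Cyp4f18 was lost without wild-type replicate 3, 4 or 5. Cyp4f16 read 5.66, 5.11, 6.68, 6.60 and 6.20 CPM in wild type and 12.1 to 19.5 CPM with PBS, all above wild type. Its log2 fold change was 1.37 (standard error 0.16, adjusted p = 2.13e-08), it ran from 7.82 to 18.8 CPM with RGLS4326, and the treatment difference was −0.24 (SE 0.10, adjusted p = 0.0978). Cyp4f13 had a mean of 40.99 CPM in wild type, 40.9 with PBS and 41.2 with RGLS4326. Cyp4v3, a fatty acid hydroxylase outside that family, rose by 0.91 (standard error 0.11, adjusted p = 2.86e-08), and its treatment difference was −0.05 (standard error 0.07), which did not pass.

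**Figure D2:**
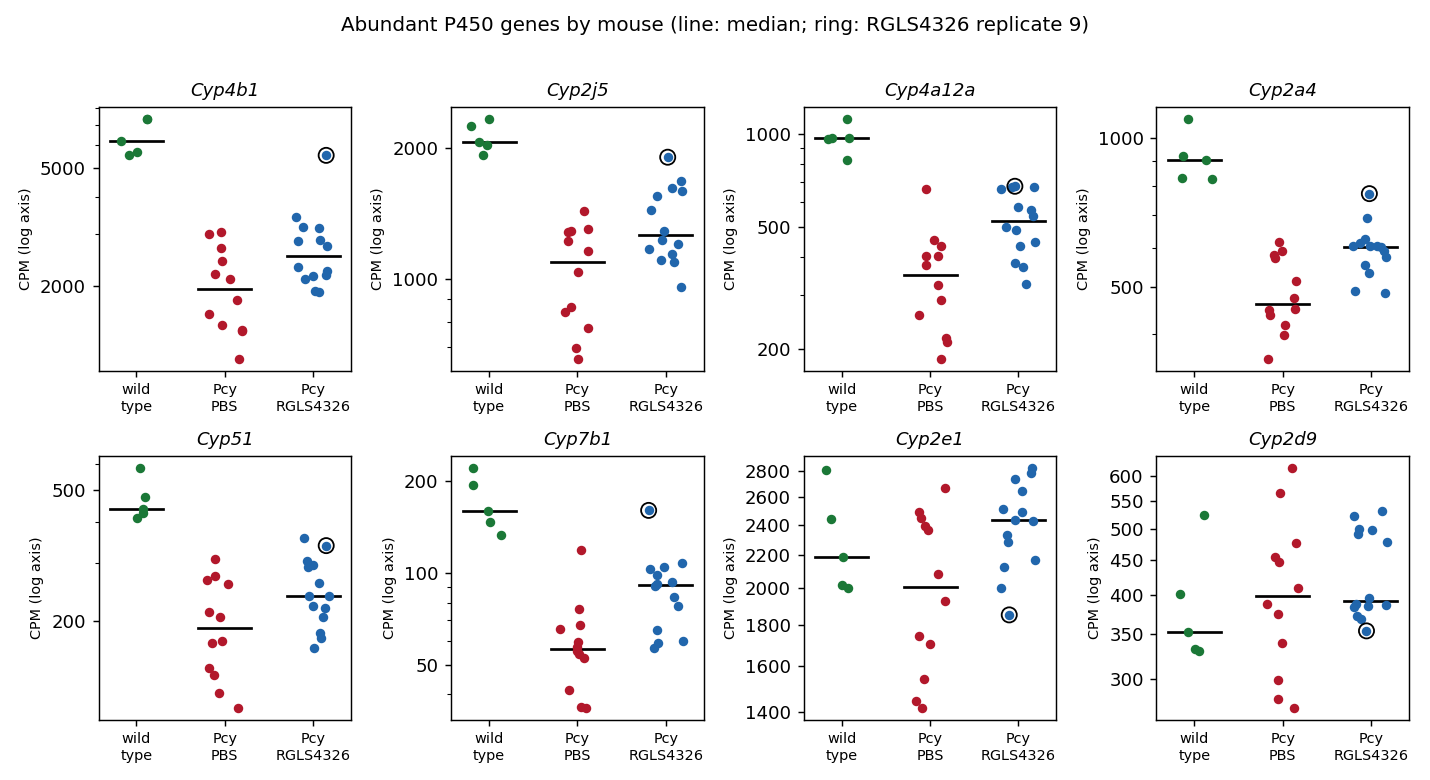
CPM of 8 abundant P450 genes on log axes, 1 point per mouse, in 5 wild-type, 12 PBS-treated and 14 RGLS4326-treated mice, with the group median as a line and RGLS4326 replicate 9 ringed. Cyp4b1, Cyp2j5, Cyp4a12a, Cyp2a4, Cyp51 and Cyp7b1 were lower in every PBS-treated mouse than in any wild-type mouse, whereas Cyp2e1 and Cyp2d9 overlapped.

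The epoxygenases of family 2j were lower in PBS-treated Pcy mice than in wild type. With PBS all 6 passed the test downward over all mice, Cyp2j6 narrowly, and 3 of them, Cyp2j5, Cyp2j11 and Cyp2j13, were higher with RGLS4326. Of the 9 genes of families 2c and 2j taken as epoxygenases, 7 fell and 0 rose with PBS, beside 36.6% and 37.7% of all genes. With RGLS4326 4 rose, or 1 without replicate 9, beside 9.15% or 4.65%. Cyp2j5, an abundant renal epoxygenase, read 2236, 2323, 2023, 2062 and 1927 CPM in wild type, 659 to 1436 CPM (median 1098) with PBS and 963 to 1901 CPM (median 1261) with RGLS4326. The wild-type mice were above all PBS-treated and all RGLS4326-treated mice, and the highest of the treated ones was replicate 9. The log2 fold change of Cyp2j5 was −1.01 with PBS (standard error 0.15, adjusted p = 1.17e-06) and 0.37 with RGLS4326 against PBS (SE 0.12, adjusted p = 0.0377), and 0.33 without replicate 9, which did not pass. This treatment call was lost in 12 of the 31 fits that left out 1 mouse, 6 without a PBS-treated and 6 without an RGLS4326-treated mouse, with log2 fold changes of 0.32 to 0.42 over the 31. Cyp2j13 had a mean of 686 ± 54.5 CPM (SD, n = 5) in wild type, against 351 ± 82.4 CPM (SD, n = 12) after PBS and 464 ± 84.1 CPM (SD, n = 14) after RGLS4326. Its gain with RGLS4326 was 0.40 in log2 units (standard error 0.11, adjusted p = 0.0202), and 0.36 without replicate 9, which passed. Cyp2j8 had the largest fall of the family, by 1.60 (standard error 0.34), and a treatment difference of 0.00 (standard error 0.28). Cyp2j6 fell by 0.10 (standard error 0.04, adjusted p = 0.0358), with 51.7, 51.1, 51.3, 47.5 and 49.98 CPM in wild type and 42.04 to 50.2 CPM with PBS. This call was lost without PBS replicate 2 or 6 or wild-type replicate 1, 2, 3 or 5 (6 of 31 fits), with no filter on low counts, with only the groups compared in the model and with the replicate block. The treatment call of Cyp2j11 was lost in 17 of the 31. Cyp2c44, an epoxygenase of the rodent kidney, was at 1.66 to 5.78 CPM in wild type and 2.04 to 4.69 CPM with PBS and did not pass (log2 fold change 0.19, adjusted p = 0.386).

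Of 17 P450 enzymes of foreign compounds tested, 5 rose and 5 fell with PBS, beside 37.7% and 36.6% of all genes. With RGLS4326 4 rose and 1 fell, beside 9.15% and 6.66%, or 1 and 0 without replicate 9, beside 4.65% and 3.44%. Cyp2e1, which oxidises ethanol and small solvents, had the second highest mean CPM of the members in wild type. It read 2811, 2442, 1999, 2018 and 2184 CPM in wild type, 1419 to 2662 CPM (median 2004) with PBS and 1852 to 2823 CPM (median 2429) with RGLS4326. The 3 groups overlapped, and the log2 fold changes were −0.18 with PBS (standard error 0.13, adjusted p = 0.203) and 0.25 with RGLS4326 against PBS (SE 0.10, adjusted p = 0.0686). Cyp2d9, a steroid hydroxylase abundant in males, had means of 388, 410.2 and 433 CPM in wild type, with PBS and with RGLS4326, and passed neither test. The treatment difference of Cyp2e1 passed in DESeq2 and in 5 of the 31 edgeR fits that left out 1 mouse, as that of Cyp4b1 did in DESeq2 and 10.

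Cyp2a4 and Cyp2a5, a steroid hydroxylase and a coumarin hydroxylase with the nearly identical upstream sequences shown above, differed in course. Cyp2a4 read 1094, 826, 922, 902 and 832 CPM in wild type, 357 to 617 CPM (median 462) with PBS and 486 to 772 CPM (median 603) with RGLS4326. It fell by 0.91 (standard error 0.10, adjusted p = 2.06e-08) and was 0.29 higher with RGLS4326 (SE 0.08, adjusted p = 0.0235), or 0.26 without replicate 9, which passed, and this call was lost in 1 of the 31 fits, without PBS replicate 10. Cyp2a5 read 179, 119, 100.4, 102 and 221 CPM in wild type, 115 to 294 CPM (median 182) with PBS and 118 to 350.04 CPM (median 209) with RGLS4326. Its log2 fold change was 0.44 with PBS (standard error 0.21, adjusted p = 0.0583), and RGLS4326-treated mice were 0.63 above wild type (adjusted p = 0.0089). The ratio of Cyp2a4 to Cyp2a5 was 3.77 to 9.18 in wild type and 2.01 to 3.20 with PBS, without overlap. With RGLS4326 its median was 2.64 and its highest value, 6.53, was replicate 9. This pair was chosen for its difference, so the ratio is given without a test.

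Cyp2d22 read 70.1, 77.9, 61.2, 55.5 and 60.7 CPM in wild type, 23.8 to 28.6 CPM in all 12 PBS-treated mice and 21.3 to 28.4 CPM in 13 RGLS4326-treated mice. Replicate 9 read 83.9 CPM, above all wild-type mice. The log2 fold change was −1.30 with PBS (standard error 0.20, adjusted p = 1.13e-06) and 0.11 with RGLS4326 against PBS (SE 0.16, adjusted p = 0.616), or −0.12 without replicate 9. Cyp2d12 rose from 11.6 ± 5.80 CPM (SD, n = 5) to 30.3 ± 20.02 CPM (SD, n = 12), or by 1.38 in log2 units (standard error 0.47, adjusted p = 0.00986), and spread widely among the PBS-treated mice, from 6.999 to 59.998 CPM. Cyp2d12 no longer passed without both wild-type replicates 3 and 4, its log2 fold change then being 1.096. Cyp2d9 and Cyp2d10, whose upstream sequences are shown above, stood at a ratio of 175 to 890.1 in wild type.

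Of family 1, Cyp1a1 and Cyp1b1 rose, and Cyp1a2 was below the count rule and not tested. Cyp1a1, which oxidises aromatic hydrocarbons, read 1.53, 1.13, 1.18, 1.57 and 0.662 CPM in wild type and 1.87 to 3.96 CPM with PBS, all above wild type. The rise was 1.17 in log2 units (standard error 0.20, adjusted p = 8.98e-06). Cyp1b1, which acts on estrogens and aromatic hydrocarbons, read 14.9, 12.4, 17.04, 17.3 and 14.3 CPM in wild type and 18.9 to 38.7 CPM with PBS, again without overlap. Its rise was 0.94 (standard error 0.18, adjusted p = 2.08e-05). Neither passed with RGLS4326 against PBS (log2 fold changes −0.22 and 0.06, adjusted p = 0.222 and 0.73), and replicate 9 was at 1.53 CPM of Cyp1a1 and 14.3 CPM of Cyp1b1, both within the wild-type range. Summed fibroblast markers (9 genes, Col1a1 and Pdgfrb among them) ran from 167 to 235 CPM in wild type and 555 to 1187 CPM with PBS. Of the 9 markers, 7 rose, beside 37.7% of all genes, and their part in the rise of Cyp1b1 was not tested. Cyp3a13 rose by 0.79 (standard error 0.19, adjusted p = 0.000349). Cyp2s1, an epithelial enzyme, rose by 0.37 with PBS (standard error 0.08, adjusted p = 0.00029) and fell with RGLS4326 (log2 fold change −0.19, SE 0.06, adjusted p = 0.0391), which did not pass without replicate 9 and was lost in 11 of the 31 fits.

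**Figure D3:**
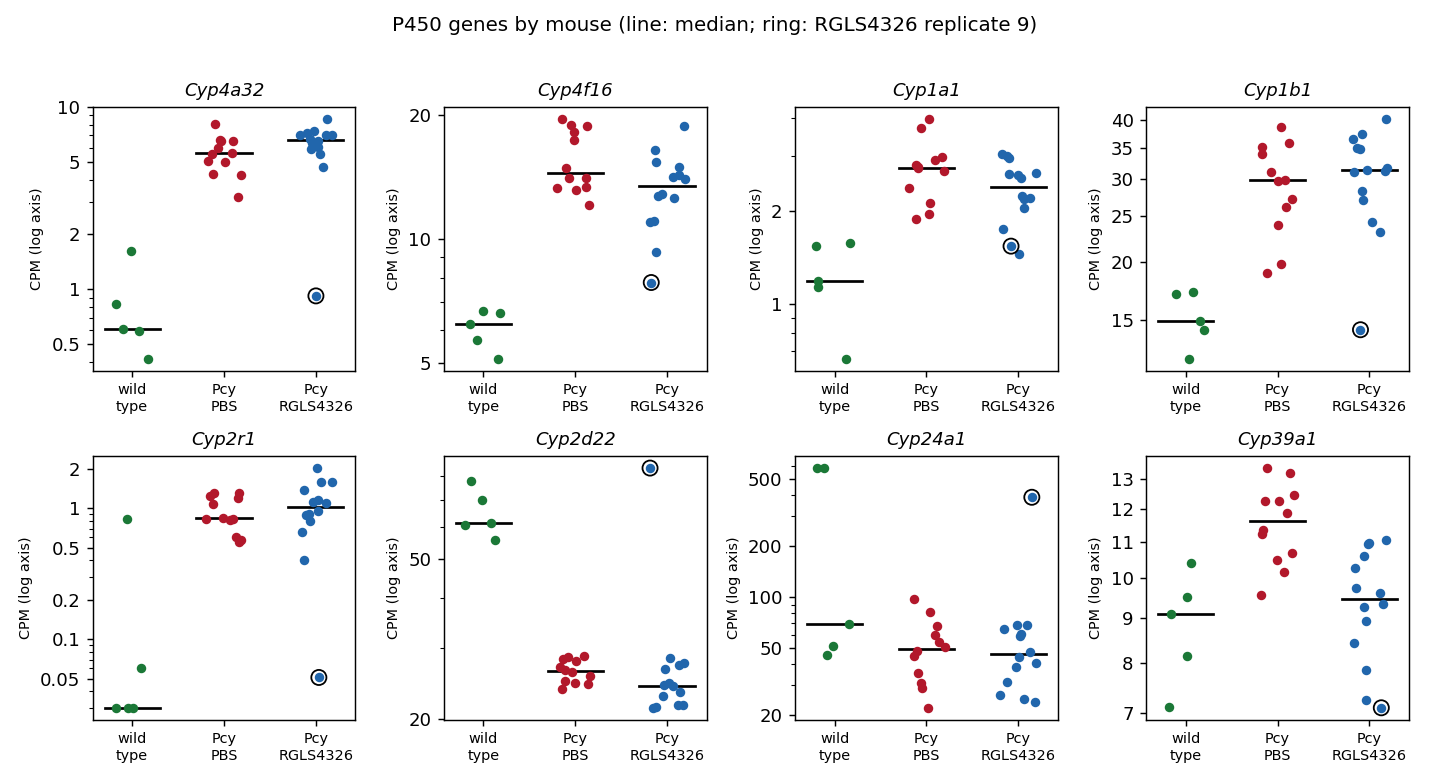
CPM of 8 further P450 genes on log axes, 1 point per mouse, with the group median as a line and RGLS4326 replicate 9 ringed. Values under 0.03 CPM are drawn at 0.03. The ringed mouse lay within the wild-type range in Cyp4a32, Cyp1a1, Cyp1b1, Cyp2r1 and Cyp24a1. It was above that range in Cyp2d22 and Cyp4f16 and just below it in Cyp39a1. Of all mice, 3 had Cyp24a1 of 389.8 CPM or more.

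Of 6 P450 genes of sterol metabolism, 4 fell with PBS (Cyp51, Cyp7b1, Cyp27a1 and Cyp8b1) and 2 rose (Cyp39a1 and Cyp46a1), beside 36.6% and 37.7% of all genes. Cyp8b1, which makes cholic acid, was scarce and passed narrowly. It ran from 0.0594 to 1.02 CPM in wild type and 0 to 0.383 CPM with PBS (log2 fold change −1.46, standard error 0.66, adjusted p = 0.0468). That call was lost in 16 of the 31 fits that left out 1 mouse, with no filter on low counts and with the index series as a covariate, and the change was 0.31 within index series 1. The call of Cyp46a1 was lost in 1 of the 31, without wild-type replicate 2. Cyp51, the lanosterol demethylase of cholesterol synthesis, read 584, 477, 411, 426 and 439 CPM in wild type and 109 to 309.99 CPM (median 190.1) with PBS. It fell by 1.23 (standard error 0.19, adjusted p = 1.62e-06), all PBS-treated mice being lower, and its treatment difference of 0.33 did not pass (SE 0.15, adjusted p = 0.107). Cyp7b1, which hydroxylates oxysterols, read 195, 221, 147, 159.7 and 134 CPM in wild type, 36.2 to 119 CPM (median 56.5) with PBS and 56.6 to 161 CPM (median 91.3) with RGLS4326. The wild-type and PBS-treated mice did not overlap. Its log2 fold change was −1.51 with PBS (standard error 0.21, adjusted p = 2.44e-07) and 0.57 with RGLS4326 against PBS (SE 0.16, adjusted p = 0.0262), and 0.48 without replicate 9, which passed. The treatment call of Cyp7b1 was lost without PBS replicate 5, 9 or 10 (log2 fold changes 0.52, 0.52 and 0.53). Cyp27a1, the mitochondrial sterol 27-hydroxylase, fell by 0.23 (standard error 0.07, adjusted p = 0.0044). Cyp39a1, which hydroxylates 24-hydroxycholesterol, read 8.14, 7.13, 9.52, 10.4 and 9.09 CPM in wild type, 9.57 to 13.4 CPM with PBS and 7.11 to 11.1 CPM with RGLS4326. The ranges overlapped. It rose by 0.39 with PBS (standard error 0.10, adjusted p = 0.00136) and had the smallest treatment p of the members tested, its log2 fold change being −0.30 (SE 0.07, adjusted p = 0.0141), which passed in all 31 fits that left out 1 mouse.

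Vitamin D genes showed no common direction. Cyp24a1, which breaks down vitamin D, read 69.5, 45.4, 578, 580.4 and 51.3 CPM in wild type, 22.1 to 98.01 CPM (median 49.3) with PBS and 23.8 to 68.6 CPM in 13 RGLS4326-treated mice, with replicate 9 at 389.8 CPM. The 3 highest mice, wild-type replicates 3 and 4 and RGLS4326 replicate 9, all belonged to index series 2. The fall with PBS, at −2.35 in log2 units (standard error 0.54, adjusted p = 0.000285), rested on wild-type replicates 3 and 4. It was −0.07 without both, and −0.05, −3.92 and 0.30 within index series 1, 2 and 3, the last with 1 wild-type mouse. Cyp27b1, which makes active vitamin D, had means of 6.45, 8.17 and 9.86 CPM in wild type, with PBS and with RGLS4326, and passed neither test (adjusted p = 0.287 and 0.332). Cyp2r1, a vitamin D 25-hydroxylase, read 0, 0.832, 0, 0 and 0.0602 CPM in wild type. With PBS it ran from 0.551 to 1.31 CPM and with RGLS4326 from 0.400 to 2.03 CPM, except for replicate 9 at 0.0511 CPM. It rose with PBS by 2.33 in log2 units (standard error 0.61, adjusted p = 0.00113), and by 5.48 without wild-type replicate 2, which depends on the prior count since the other wild-type mice were at or near 0.

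Retinoic acid and steroid members were scarce, and the orphan Cyp20a1 was not. Cyp26b1, which breaks down retinoic acid, read 2.42, 10.3, 2.25, 1.63 and 9.27 CPM in wild type and 1.92 to 4.04 CPM with PBS. Its fall (log2 fold change −0.81, standard error 0.31, adjusted p = 0.02) did not pass without wild-type replicate 2 (−0.40) or without replicate 5 (−0.50). Cyp26a1 was at most 0.818 CPM in any mouse. Cyp17a1, the 17-hydroxylase of steroid synthesis, was at 0.121 to 0.645 CPM throughout and did not pass, Cyp21a1 had too few counts to be tested, and Cyp11a1 was below the count rule. Summed adrenal markers (11 genes) were 4.97 to 9.42 CPM in all mice, and Th, Dbh and Pnmt were at 0 in wild type. Cyp20a1, whose substrate is unknown, was at 13.4 to 18.2 CPM in wild type and 15.02 to 17.4 CPM with PBS. It rose by 0.15 (standard error 0.06, adjusted p = 0.0264), and did not pass without wild-type replicate 2 or 5.

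Several P450 genes best known from liver were highest in the mice with the most liver marker RNA. The 17 liver markers, Alb and Apoa1 among them, summed to 722 CPM in RGLS4326 replicate 9, 425 in wild-type replicate 5 and 349.9 in RGLS4326 replicate 1, where the other mice had 56.4 to 274 CPM. With PBS 8 of the 17 fell and 2 rose, beside 36.6% and 37.7% of all genes. Against PBS, 3 rose with RGLS4326, or 0 without replicate 9, beside 9.15% or 4.65% of all genes. Cyp2c29 read 0.826, 0.178, 1.77, 2.36 and 3.85 CPM in wild type and 0 to 0.848 CPM (median 0.0712) with PBS. With RGLS4326 it ran from 0 to 2.19 CPM, apart from replicate 9 at 20.6 CPM. Cyp3a11, the main drug-oxidising 3a enzyme of mouse liver, read 1.36, 0.772, 2.43, 3.75 and 8.61 CPM in wild type, 0 to 3.19 CPM with PBS and up to 7.03 CPM with RGLS4326, apart from replicate 9 at 34.7 CPM. Cyp2d10, Cyp2f2, Cyp3a25, Cyp2d13 and Cyp8b1 were also highest of all mice in replicate 9. Other members did not go with the liver markers in this way. Cyp2e1 had its lowest RGLS4326 value in replicate 9, at 1852 CPM. Cyp2c70 was highest in wild-type replicate 5, at 1.45 CPM, with replicate 9 at 1.07 CPM. Cyp2b10 was highest in wild-type replicate 2, at 6.59 CPM, a mouse with 87.7 CPM of liver markers. The fall of Cyp2f2 with PBS (log2 fold change −1.48, standard error 0.49, adjusted p = 0.00737) did not pass without wild-type replicate 5 (−0.76). The log2 fold change with RGLS4326 against PBS was 3.45 for Cyp2c29 (standard error 0.95, adjusted p = 0.0224) and 2.14 for Cyp3a11 (SE 0.70, adjusted p = 0.0394). Without replicate 9 these were 1.49 and 1.04, and for Cyp2d10 0.63 in place of 1.47 and for Cyp8b1 1.03 in place of 1.54, and none of the 4 passed. Of the 31 fits that left out 1 mouse, the treatment call was lost in 1 for Cyp2c29, 11 for Cyp3a11, 18 for Cyp2d10 and 7 for Cyp8b1. Without RGLS4326 replicates 1 and 9 and wild-type replicate 5, a choice made after seeing the data, Cyp2c29 still fell with PBS, by 2.87 in place of 3.37, and 4 members were called with RGLS4326 in place of 13 (Cyp2a4, Cyp2j13, Cyp4a12a and Cyp39a1). Cyp2b10, a phenobarbital-inducible enzyme, read 2.18, 6.59, 2.66, 3.45 and 1.69 CPM in wild type and 0.359 to 1.84 CPM with PBS. It fell by 2.18 (standard error 0.33, adjusted p = 1.17e-06), and replicate 9 at 2.91 CPM was within the wild-type range. With RGLS4326 it was 0.89 higher than with PBS (SE 0.28, adjusted p = 0.0344), and 0.76 without replicate 9, which did not pass, and this call was lost in 10 of the 31 fits. The part of liver transcripts in these results was not tested.

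**Figure D4:**
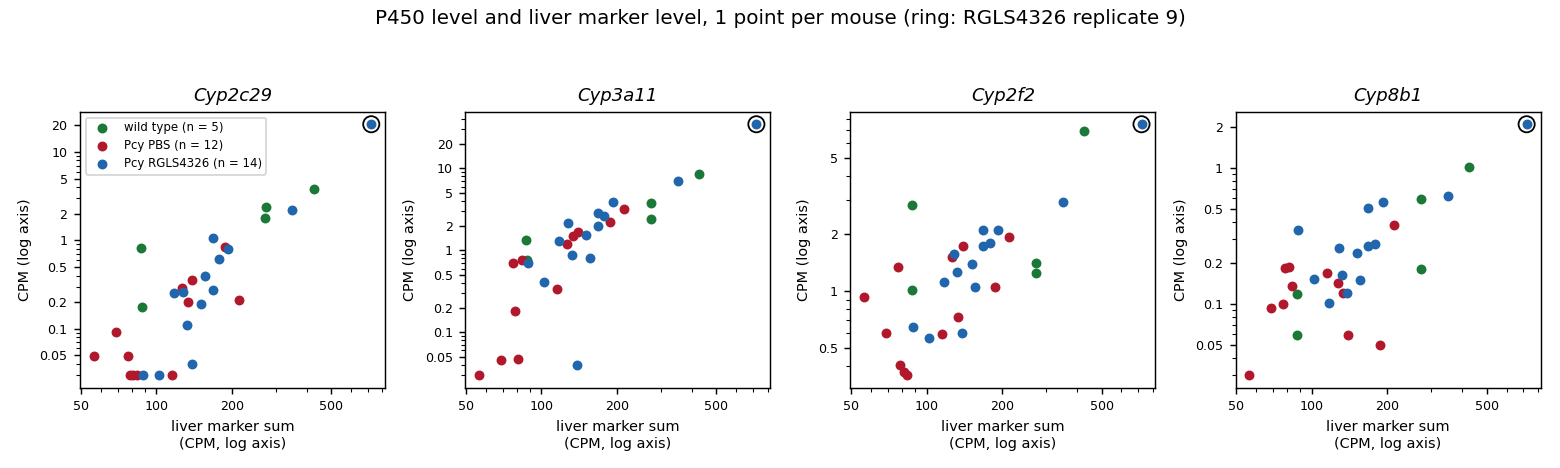
CPM of Cyp2c29, Cyp3a11, Cyp2f2 and Cyp8b1 against the summed CPM of 17 liver markers, 1 point per mouse on log axes, with RGLS4326 replicate 9 ringed. Values under 0.03 CPM are drawn at 0.03. The ringed mouse, at 722 CPM of liver markers, was the highest in all 4 genes, and wild-type replicate 5, at 425 CPM, came next in each.

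Within the PBS-treated mice alone, several abundant P450 genes were higher where the proximal tubule markers were higher. Over the 12 mice, log2 levels of Cyp2j5 and the marker sum had a Pearson r of 0.973 and a Spearman rho of 0.972 (permutation p = 1e-05, the smallest the 100000 resamples can give, and 2e-05, with adjusted p = 0.000145 and 0.00029). For Cyp4b1 r was 0.964 and rho 0.979 (permutation p = 1e-05 for both, adjusted p = 0.000145 and 0.00029). Cyp2e1, which did not pass between the groups, had r = 0.955 and rho = 0.811 (permutation, adjusted p = 0.000362 and 0.00907). Cyp4f16 ran the other way, with r = −0.902 and rho = −0.867 (permutation, adjusted p = 0.00215 and 0.00284). Without the 2 mice farthest from the median marker sum, r was 0.974, 0.949, 0.959 and −0.861 for these genes. Of 29 genes examined, 10 had a positive and 1 a negative Pearson r with an adjusted permutation p under 0.05, all 11 with r at or beyond ±0.671. Over 15184 genes of all kinds, 19.3% had an r of at least 0.671 and 19.9% of at most −0.671, so that such relations were common. Cyp24a1 (r = 0.102) and Cyp1b1 (r = 0.159) did not pass. Cyp2d12 and Cyp4a32, which rose with PBS while the markers fell, were among the 10. Cyp2d12 had r = 0.936 and rho = 0.839 (permutation, adjusted p = 0.000638 and 0.00619), and Cyp4a32 had r = 0.710 and rho = 0.671 (permutation, adjusted p = 0.0238 and 0.052). With values centred within the index series, a step added after the data were seen, r was 0.974, 0.973, 0.962, 0.936, 0.788 and −0.904 for Cyp2j5, Cyp4b1, Cyp2e1, Cyp2d12, Cyp4a32 and Cyp4f16. By an exact two-sided permutation test within series, adjusted over the 29, 8 positive and 1 negative relations passed, Cyp7b1 and Cyp2b10 no longer among them (adjusted p = 0.0503 and 0.0923). All 20 proximal tubule markers fell with PBS, beside 36.6% of all genes. Against PBS, 9 of the 20 rose with RGLS4326, or 2 without replicate 9, beside 9.15% or 4.65% of all genes. The part of these markers in the P450 differences between groups was not tested.

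**Figure D5:**
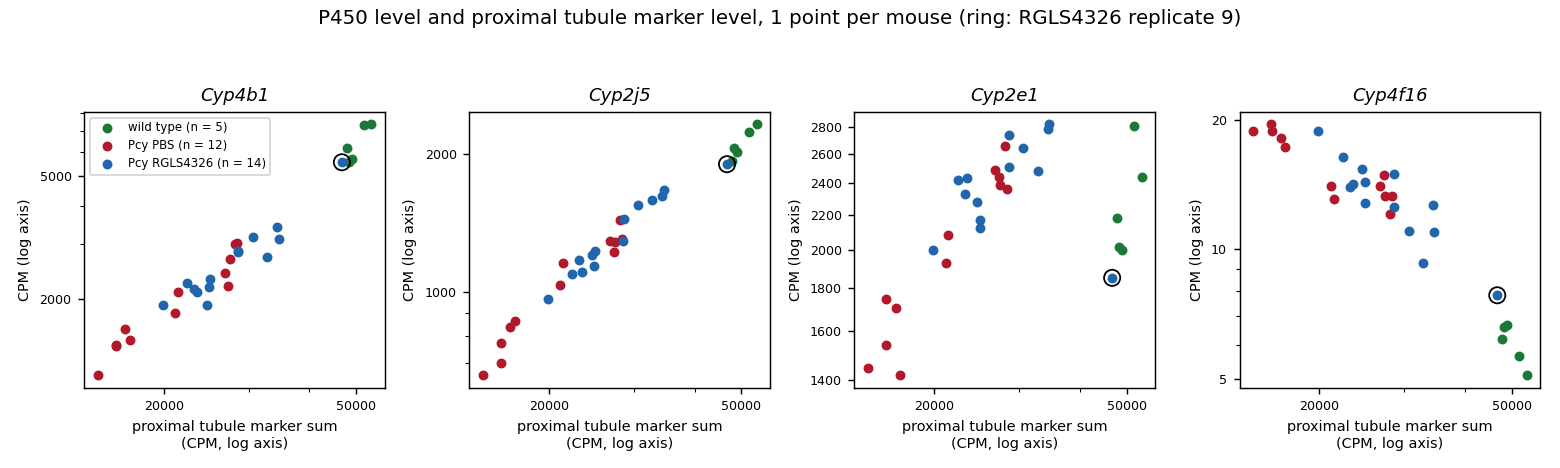
CPM of Cyp4b1, Cyp2j5, Cyp2e1 and Cyp4f16 against the summed CPM of 20 proximal tubule markers, 1 point per mouse on log axes, with RGLS4326 replicate 9 ringed. Among PBS-treated mice Cyp4b1, Cyp2j5 and Cyp2e1 were higher where the marker sum was higher (r from 0.955 to 0.973) and Cyp4f16 was lower.

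Genes that serve P450 enzymes were read from 4 lists. Of 6 electron donors tested, 3 fell and 1 rose with PBS, beside 36.6% and 37.7% of all genes. With RGLS4326 2 rose, or 0 without replicate 9, beside 9.15% or 4.65% of all genes. Por, the reductase that feeds the enzymes of the endoplasmic reticulum, went from a mean of 506 CPM in wild type to 254 with PBS and 326 with RGLS4326. Por changed by a log2 fold of −0.99 with PBS (standard error 0.14, adjusted p = 3.37e-07) and 0.36 with RGLS4326 against PBS (SE 0.11, adjusted p = 0.0301), or 0.29 without replicate 9, which did not pass. Fdx1, the ferredoxin of the mitochondrial enzymes, fell by 0.66 and was 0.22 higher with RGLS4326 (adjusted p = 0.0471, not passed without replicate 9). Of 12 genes of heme synthesis and breakdown, 7 fell and 2 rose with PBS, where 36.6% and 37.7% of all genes did. With RGLS4326 3 rose, beside 9.15% of all genes, or 2 without replicate 9, beside 4.65%. Fech, which puts iron into heme, fell by 1.07 (standard error 0.11, adjusted p = 7.13e-09) and was 0.31 higher with RGLS4326, replicate 9 included (adjusted p = 0.0263). Alas1, the first step of heme synthesis, had means of 140.3 CPM in wild type, 112 with PBS and 176 with RGLS4326. It did not pass with PBS (log2 fold change −0.33, adjusted p = 0.2) and rose with RGLS4326 by 0.65 (standard error 0.17, adjusted p = 0.0205), and by 0.67 without replicate 9, which passed.

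Of 22 receptors and factors that control P450 genes, 12 fell and 3 rose with PBS, beside 36.6% and 37.7% of all genes. With RGLS4326 5 rose and 2 fell (9.15% and 6.66% of all genes), or 2 and 1 without replicate 9 (4.65% and 3.44%). Ppara, the fatty acid receptor behind the 4a genes, fell from a mean of 208 to 73.4 CPM (log2 fold change −1.50, standard error 0.18, adjusted p = 4.69e-08). Nr1h4, the bile acid receptor, fell by 1.48 and rose with RGLS4326 by 0.63 (standard error 0.14, adjusted p = 0.0101), which also passed without replicate 9. Hnf4a, which drives proximal tubule genes, fell by 0.84 and rose with RGLS4326 by 0.35, replicate 9 included (adjusted p = 0.0213). Ahr, the dioxin receptor, was at means of 8.92, 9.08 and 8.73 CPM and passed neither test. Of 14 enzymes that act on P450 products, 8 rose and 3 fell with PBS, beside 37.7% and 36.6% of all genes, and 1, Hsd11b2, fell with RGLS4326, with or without replicate 9, beside 6.66% or 3.44%. Ephx2, the soluble hydrolase of arachidonic epoxides, went from 749.8 to 453 CPM (log2 fold change −0.73, standard error 0.10, adjusted p = 1.21e-07). Hsd11b2, which inactivates glucocorticoids in the collecting duct, rose by 1.55 with PBS (standard error 0.15, adjusted p = 2.56e-09) and fell with RGLS4326 (log2 fold change −0.32, adjusted p = 0.0352). It is also 1 of 8 collecting duct markers, of which 8 rose with PBS (37.7% of all genes) and 7 fell with RGLS4326 (6.66%), or 6 without replicate 9 (3.44%).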

How the data were processed

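Kidney mRNA libraries of 31 mice (12 Pcy PBS, 14 Pcy RGLS4326, 5 wild type, grouped by the labels) were sequenced by the authors as paired 75-base stranded reads, trimmed with Trim Galore, mapped with STAR on GRCm38 and counted uniquely per gene with HTSeq 0.6.1. The strand setting of the counting is not given in the sources used here. The authors deposited raw counts per gene, with no normalization. Rows that name no gene were left out of library sizes. Reads not uniquely aligned were 17.8% to 21.2% and those on no feature or on several 10.8% to 12.9%.

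Genes passing filterByExpr (15185, with 55 of the 56 P450 genes) were scaled by TMM and fitted with edgeR 4.0.16 in R 4.3.3 by a quasi-likelihood model over all mice, each group having its own coefficient, and p-values were adjusted by Benjamini-Hochberg over all genes at 0.05. The standard error is the absolute log2 fold change over the square root of F. Tested on simulated data, 199 of 200 genes changed by a log2 fold of 1 between RGLS4326 and PBS were called among 15185, with 9 unchanged genes. The changed genes had a mean of at least 1 CPM, and the simulation held no index series and no mouse that stood apart. Recovery of smaller changes was not tested. Totals of 14892524 to 27459962 counts leave members near 1 CPM resting on few reads. The study assigned Pcy mice to treatment at random, the labels number the libraries within groups, and p-values measure the spread between these libraries. Correlations used log2(CPM + 0.1) for genes and two-sided permutation tests. Annotation was GENCODE vM21 and RefSeq.

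Named genes were the 6 largest rises and falls with PBS and the 5 largest with RGLS4326 among called members of at least 1 CPM on average, the most abundant member of each role, a list by role, and 2 genes of each pathway list. Other genes were named after their values were seen. The members, lists and rule were chosen with earlier results of these data known. Alternatives covered the test (DESeq2 1.42.0), scaling, filter, fold threshold, groups in the model, index series, replicate block and each mouse left out.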

Additional observations from a re-analysis of the deposited data

Results flagged for a closer look

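In the 5 wild-type mice, 29 P450 genes were examined for a mouse far from the other 4 by Dixon's rule, which chance meets in about 1 of 20 groups, and 1 was found. Cyp2r1 was at 0.832 CPM in wild-type replicate 2, where the other wild-type mice had 0 to 0.0602 CPM, and its gap to the nearest of them was 0.928 of the group's range. That mouse lay within the PBS range of 0.551 to 1.31 CPM. The groups of 12 and 14 mice were too large for the rule.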

How the results depend on the processing

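The count of 36 members called with PBS against wild type was 34 to 37 under DESeq2, other scaling, other filters, only the groups compared, the index series as a covariate and wild-type replicates 3 and 4 as 1 sample, and 31 to 39 when 1 mouse was left out. It was 22, 20 and 30 within index series 1, 2 and 3. Series 3 has 1 wild-type mouse, which the fit assumes to vary like the other groups. The count of 13 with RGLS4326 against PBS was 9 to 15 under the same alternatives and 3 to 17 when 1 mouse was left out. It was 3 without PBS replicate 10, 5 without PBS replicate 5 or 9 or RGLS4326 replicate 9, 6 without PBS replicate 2 or 3, 7 without RGLS4326 replicate 8, 10 or 13, and 8 without PBS replicate 11 or RGLS4326 replicate 6. It was 7 with the fold threshold and 4 without the 3 mice highest in liver markers, an alternative chosen after seeing the data. Within the index series edgeR called 0, 0 and 0. There 2, 11 and 17 members had an unadjusted p under 0.05, beside 1.82%, 19.8% and 19.9% of all genes. The count of 28 with RGLS4326 against wild type was 25 to 33 when 1 mouse was left out, and 25, 2 and 13 within index series 1, 2 and 3, the last again with 1 wild-type mouse. With the replicate number as a block, edgeR called 0 members with RGLS4326 against PBS, 36 with PBS and 26 with RGLS4326 against wild type. In that fit 17 members had an unadjusted p under 0.05 with RGLS4326 against PBS, and the share over all genes is not given here. The numbers did not pair the mice, since the 12 same-numbered PBS and RGLS4326 mice deviated with correlations from −0.416 to 0.435. Of the 36, 3 turned direction within a series. Cyp8b1 turned to a log2 fold change of 0.31 in series 1, Cyp26b1 to 0.46 in series 2 and Cyp24a1 to 0.30 in series 3, against 1 wild-type mouse. The cause was not tested. Members under 1 CPM are limited by depth.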
